A study of Rattus norvegicus with 3 samples.

Results

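Insulin-like growth factor 1 (Igf1), its receptor (Igf1r) and the binding proteins Igfbp1 to Igfbp7 were followed in the wall of the rat common carotid artery before and after balloon injury. Array probes were assigned to these 9 genes through the RefSeq accession printed for each probe, out of 15296 genes that could be named on the arrays. The rule that assigns probes to the genes uses no measured value. The samples were whole common carotid arteries of male Wistar rats: an uninjured artery, an artery balloon-injured 7 days earlier and an artery balloon-injured 21 days earlier. The labels name no other treatment. In this procedure a balloon inflated inside the vessel scrapes off the endothelium and stretches the smooth muscle layer, which then forms a new inner layer, the neointima.

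Each group was 1 Cy3-labelled one-colour Agilent array, so every difference below is a difference between 2 arrays, with no test and no p-value. The design text describes independent experiments with different rats at each time. Only these arrays were analysed here. Arrays for uninjured and day 21 shared their design and their scan. The array for day 7 had a different design and scan and newer scanner software. The day 7 time point and these technical differences cannot be told apart. The share of probes well above background lay between 59.8% and 76.6%, and no spot was saturated.

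IGF1 is a secreted growth factor that binds the receptor tyrosine kinase IGF1R and signals through insulin receptor substrates to the PI3K, AKT and mTOR kinases. Vascular smooth muscle cells and macrophages both make it, and it is a known mitogen and survival factor for smooth muscle cells. The binding proteins IGFBP1 to IGFBP6 hold IGFs with high affinity and control how much reaches the receptor. IGFBP7 is a relative with low affinity for IGFs. Proteases that cut the binding proteins release the ligand.

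The 2 designs decided what could be compared. Each array carried 11 probes for the 9 genes. Igf1, Igf1r, Igfbp1, Igfbp4 and Igfbp6 had a probe on both designs and could be followed over all 3 arrays. Igfbp2, Igfbp3 and Igfbp5 had probes on each design but none in common, so their day 7 signal could not be set against the others, and Igfbp7 had a probe on the day 7 design only. In the text, a signal is the scanner's processed intensity of a probe. A level is the log2 signal minus the array's 75th percentile. It was taken over the 10602 probes common to both designs for comparisons with day 7, and over all probes of the older design for day 21 against uninjured. Errors after ± are SDs of a probe's mean, derived from replicate spots of the same array and combined over the arrays of a ratio. They are a technical spread that holds no difference between animals. A probe printed in several spots can thus have a smaller error than a probe in a single spot, whose SD came from other probes. Arrays differed in overall brightness, with a 75th percentile of 127, 230 and 384 over the common probes (uninjured, day 7 and day 21, in that order), so raw signals alone show no direction.

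Promoters of 4 genes are shown, as the 250 bases before the transcription start in the GRCr8 assembly from RefSeq, because the results below turn on them. Igf1 (chr7:24172282-24172531, plus strand), Igfbp6 (chr7:135154669-135154918, plus strand) and Igfbp3 (chr14:86277945-86278194, minus strand) were at least 2-fold higher after injury on 1 probe or more. Igfbp1 (chr14:86261027-86261276, plus strand) is the gene next to Igfbp3 on chromosome 14 and had ratios below 0 after injury. Capitals mark matches to any of 5 motifs searched on both strands.

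Igfbp3: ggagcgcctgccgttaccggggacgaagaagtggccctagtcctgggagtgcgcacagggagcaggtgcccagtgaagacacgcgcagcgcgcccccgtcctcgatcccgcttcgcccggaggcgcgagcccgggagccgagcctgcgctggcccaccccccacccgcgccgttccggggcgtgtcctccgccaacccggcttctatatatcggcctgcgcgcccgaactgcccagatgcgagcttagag
Igfbp1: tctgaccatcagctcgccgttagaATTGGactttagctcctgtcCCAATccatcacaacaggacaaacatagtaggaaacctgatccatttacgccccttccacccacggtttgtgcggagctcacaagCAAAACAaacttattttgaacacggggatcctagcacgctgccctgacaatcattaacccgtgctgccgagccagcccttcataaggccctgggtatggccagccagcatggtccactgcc
Igf1: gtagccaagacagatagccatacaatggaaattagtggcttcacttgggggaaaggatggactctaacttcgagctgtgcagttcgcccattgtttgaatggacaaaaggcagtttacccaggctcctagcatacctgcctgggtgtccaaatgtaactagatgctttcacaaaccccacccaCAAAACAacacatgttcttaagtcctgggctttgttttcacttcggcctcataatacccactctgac
Igfbp6: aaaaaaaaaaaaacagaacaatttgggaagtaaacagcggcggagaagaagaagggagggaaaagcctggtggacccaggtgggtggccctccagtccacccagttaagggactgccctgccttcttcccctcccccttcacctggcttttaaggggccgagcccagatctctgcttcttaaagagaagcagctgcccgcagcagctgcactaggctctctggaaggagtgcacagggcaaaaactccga

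The GC content was 71.6% before Igfbp3, 52.8% before Igfbp1, 46.8% before Igf1 and 54.8% before Igfbp6, against a median of 51.2% and quartiles of 44% and 60% over 33469 rat promoters. The neighbours Igfbp1 and Igfbp3 thus had promoters of unlike base composition, Igfbp3's being above the upper quartile. So were those of Igf1r (79.6%), Igfbp7 (74.4%), Igfbp4 (68.8%) and Igfbp2 (64%), so this is not particular to Igfbp3. CAAAACA, letters of the insulin response element, was found 67 bases before the start of Igf1 and 121 bases before that of Igfbp1, and in 5.46% of all promoters. CCAAT was found before Igfbp1 alone among the 9 genes, on both strands, and in 34.0% of all promoters. GGGCGG was found before Igf1r, Igfbp2 and Igfbp7 (30.5% of all), TATAAA before Igfbp4 (12.9%), and TGANTCA before none of the 9 (6.34%). The windows of Igfbp3, Igfbp5 and Igfbp6 held none of these letters. A match is a description of the sequence and says nothing of binding.

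The comparison of day 21 with uninjured asked how the wall with an established injury response differed from the intact wall. Igfbp3 was 13.5-fold higher at day 21 and Igfbp6 was 3.08-fold higher, while Igfbp5 was 2.15-fold lower at a signal close to background. Igf1, Igf1r, Igfbp1 and Igfbp4 were within 2-fold on their brightest probe, and Igfbp2 had no direction. Of the 8 genes with a probe, 2 were therefore higher by 2-fold or more and 1 was lower by as much. Over 11002 measured genes, 9.90% were higher by 2-fold or more, 14.6% lower and 24.5% apart in either direction. With 8 genes, 3 apart is a share that cannot be called particular to the family. The median log2 ratio was -0.30 over the 7 members with a ratio and -0.20 over the 9422 genes detected on both arrays.

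Igfbp3, the main carrier of IGFs in blood and a binding protein that can also restrain cell growth without IGFs, had the highest ratio. Its brighter probe read 37.0 on the uninjured array and 1365 on the day 21 array, a log2 ratio of 3.76 ± 0.25, and 0.913% of all genes were higher. A different Igfbp3 probe, printed in 10 spots, read 23.3 on the uninjured array (7 unflagged spots, from 20.7 to 27.1) and 312 on the day 21 array (10 spots, from 279 to 327). In these unscaled signals the spots of the 2 arrays did not overlap, but the arrays also differed in overall brightness. The log2 ratio of that probe was 2.29 ± 0.05, or 4.91-fold, and 2.71% of all genes were higher. The Igfbp3 probes thus gave the same direction but differed by 1.46 on the log2 scale. Between probes of 1 gene the median difference was 0.46 over 1784 genes, and 1.41 was its 90th percentile.

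Igfbp6, a binding protein that prefers IGF2 over IGF1, read 618 on the uninjured array and 5190 on the day 21 array. The log2 ratio was 1.62 ± 0.16, and 4.78% of all genes were higher. Its ratio exceeded those of Igf1 and Igfbp4 between the same arrays by 0.97 and 2.15 on the log2 scale. Such a difference of ratios does not depend on subtracting a constant from each array. Median scaling, kept flagged spots, the background filter and the common probes returned the same values. The others, with quantile normalization, normexp, the mean over probes and the authors' deposited table, kept the sign. Over all 8 alternatives the differences ran from 0.71 to 0.97 and from 1.82 to 2.49.

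Igf1 read 3018 on the uninjured array and 12920 on the day 21 array with its brighter probe. After scaling this was a log2 ratio of 0.65 ± 0.14, or 1.57-fold, and 14.6% of all genes were higher. The other Igf1 probe read 164 and 952, a log2 ratio of 1.09 ± 0.27, or 2.13-fold. Both probes were higher at day 21, 1 of them past 2-fold, and they differed by 0.44. The brighter probe passed 2-fold in 2 of 8 alternatives, median scaling (1.13) and normexp (1.28).

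Igf1r, the tyrosine kinase receptor through which IGF1 acts, was printed in 10 spots. They read from 42.5 to 58.9 on the uninjured array, with a mean of 50.8, and from 96.6 to 134 on the day 21 array, with a mean of 113. Relative to all probes the receptor was 1.23-fold lower at day 21, a log2 ratio of -0.30 ± 0.06. That is close to the median over all genes, and it was 0.18 with median scaling. Between the same arrays Igf1 and Igf1r differed by 0.95.

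Igfbp4, which in culture mostly inhibits IGF action and is the substrate of the protease PAPP-A, read 6223 and 11764, a log2 ratio of -0.53 ± 0.14 (1.44-fold lower). Its sign turned to 0.14 with normexp background correction. The other Igfbp4 probe read 22.5 and 26.6, a log2 ratio of -1.21 ± 0.58. Igfbp1, a binding protein under insulin control and best known from liver, read 2816 and 3960, a log2 ratio of -0.96 ± 0.15. This was 1.94-fold lower, just inside the 2-fold limit, and 15.1% of all genes were lower. It stayed below 0 under the 8 alternatives and passed 2-fold in 1 of them.

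Igfbp5, a binding protein that attaches to the extracellular matrix, read 10.9 on the uninjured array and 13.8 on the day 21 array. The highest negative control on the day 21 array read 13.7. The log2 ratio of -1.11 ± 0.71 therefore rests on a signal at the edge of what the array could measure. Igfbp5 was at least 2-fold lower in 3 of 6 alternatives, which left its single-spot value nearly unaltered. It was within 2-fold with median scaling (-0.63), quantile normalization (-0.47) and normexp (-0.78). Igfbp2, which binds both IGFs, read 22.1 at day 21 and 6.96, not well above background, on the uninjured array. The uninjured value being only a bound, no fold can be given.

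**Figure D1:**
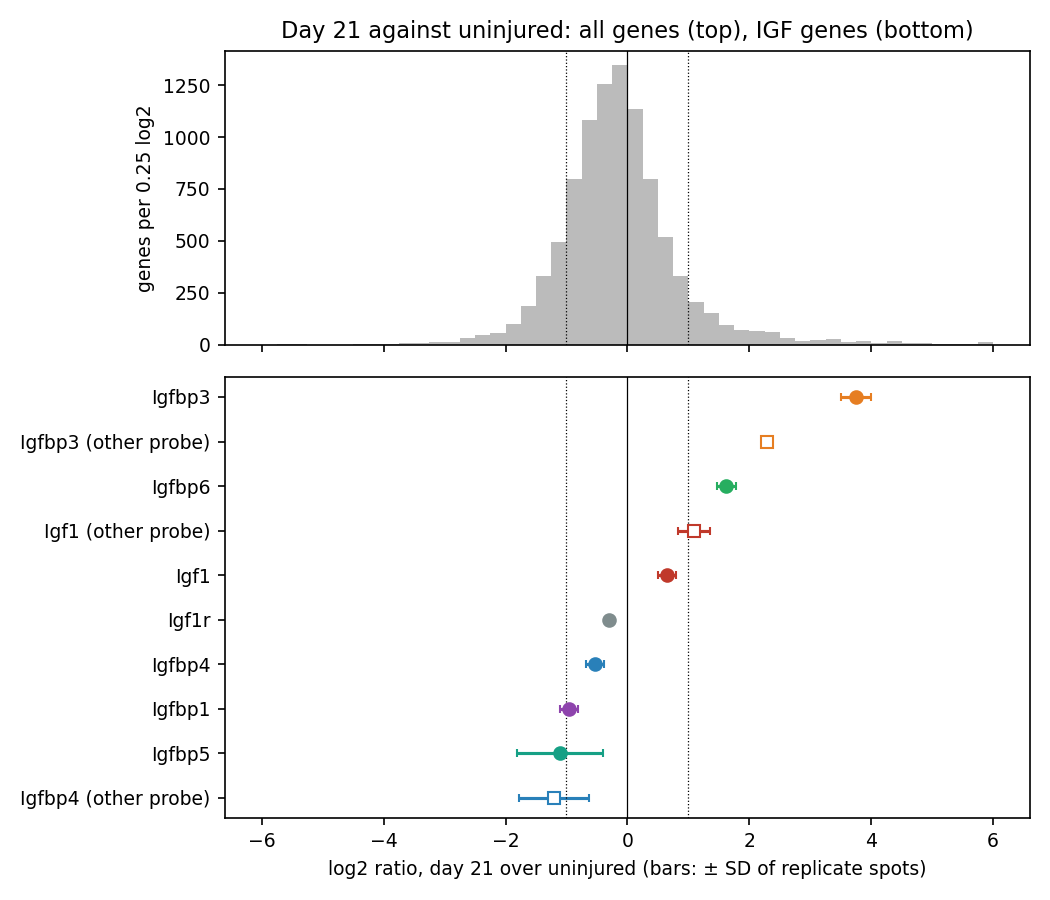
The upper panel counts the genes well above background on both arrays in bins of their log2 ratio of day 21 over uninjured. The lower panel gives each such probe of the IGF genes, with ± the SD of the probe means from replicate spots. Dotted lines mark 2-fold. Filled circles are the brightest probe of a gene and open squares its other probe. Both Igfbp3 probes (3.76 and 2.29) and Igfbp6 (1.62) lie in the upper tail of all genes, while the brightest probes of Igf1r, Igfbp4 and Igfbp1 lie between -0.30 and -0.96 and the other Igfbp4 probe lies at -1.21.

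Markers of several cell types differed between the same arrays. In bulk tissue, fewer cells of a type and less RNA per cell cannot be told apart. Contractile smooth muscle markers were at least 2-fold lower at day 21 in 10 of 10 measured, their summed signal going from 2983 to 493 multiples of the 75th percentile. Such a sum mostly follows its brightest gene, here Tpm2 (level 11.1 on the uninjured array). Macrophage markers were at least 2-fold higher in 11 of 11, from 40.7 to 1904, with Cd163 not well above background on either array. Endothelial markers were higher in 7 and lower in 0 of 9 (6.86 to 26.7), adipocyte markers higher in 3 and lower in 0 of 5 (11.4 to 77.2), and mitosis genes higher in 6 and lower in 0 of 7 (4.21 to 22.5). Fibroblast markers were higher in 2 and lower in 2 of 8 (3540 to 2167). Schwann cell markers were lower in 3 of 7 (6.40 to 2.73), skeletal muscle markers in 4 of 6 (20.5 to 8.86) and liver or plasma genes in 4 of 5 (4.08 to 0.987), with none of these higher. The part of these differences in the values of Igf1 and the binding proteins was not tested.

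The comparison of day 7 with uninjured asked about the early phase after injury, when smooth muscle cells divide and migrate. Igf1 was 2.71-fold higher at day 7, and Igfbp6 was 1.67-fold higher. Igfbp1 was 1.63-fold lower. Igf1r and Igfbp4, at log2 ratios of 0.21 and -0.35, changed sign between processing alternatives. Of the 5 genes with a common probe, 1 was higher by 2-fold or more and 0 were lower by as much, against 20.0% higher, 17.7% lower and 37.7% apart of 6731 measured genes. The share among the 5 was no larger than that of all genes. The median log2 ratio was 0.21 over the 5 members and -0.01 over the 5262 genes detected on both arrays.

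The Igf1 probe read 3018 on the uninjured array and 14832 on the day 7 array, the highest of the 3 arrays. In the order uninjured, day 7, day 21, its levels were 4.57, 6.01 and 5.07. The log2 ratio at day 7 was 1.44 ± 0.14, and 8.86% of all genes were higher. It was at least 2-fold higher in 7 of 8 alternatives. The exception scaled each array on the probes of its own design, which moved the median of all genes to -1.23 and that of Igf1 to 0.22. Under each alternative Igf1 had the highest ratio and Igfbp1 the lowest ratio of the 5 genes. Only quantile normalization, normexp and the authors' deposited table could alter this order.

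Igfbp6 read 618 on the uninjured array and 1871 on the day 7 array. In the same order its levels were 2.28, 3.02 and 3.76, so the day 7 array lay between the others. The log2 ratio at day 7 was 0.74 ± 0.14, and it turned to -0.48 with the percentile taken over each array's own probes, which puts day 7 below uninjured. It was lower than that of Igf1 by 0.70 (from 0.70 to 1.15 over the 8 alternatives), the reverse of their order at day 21. Only quantile normalization, normexp and the authors' deposited table could alter this difference. Igf1 thus had the higher ratio of this pair at day 7, and Igfbp6 had it at day 21. Each gene was read with 1 probe. At day 7 against uninjured, probes of 1 gene differed by a median of 0.99 over 105 genes, with a 90th percentile of 2.26. The day 7 gap of 0.70 is smaller than that, so the change of order is not settled.

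The 10 Igf1r spots read from 84.4 to 127 on the day 7 array, with a mean of 107. The receptor's levels were -1.32, -1.11 and -1.77, again in the order of time. The log2 ratio of 0.21 ± 0.07 turned sign in 4 of 8 alternatives, so no direction is given for the receptor at day 7. Igf1 lay 1.22 above Igf1r in this comparison, and from 1.22 to 2.15 over the alternatives, most of which could not alter the difference.

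Igfbp4 read 8868 at day 7, with levels of 5.62, 5.27 and 4.94 in that order. Its log2 ratio at day 7 was -0.35 ± 0.14 and turned sign in 2 of 8 alternatives. Igfbp1 read 3131 at day 7, with levels of 4.47, 3.76 and 3.37. Its log2 ratio was -0.71 ± 0.14 and stayed below 0 in all 8, from -1.93 to -0.39. Both genes had their lowest level on the day 21 array as scaled here, but their order between day 7 and day 21 turned in 3 of 8 alternatives each.

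**Figure D2:**
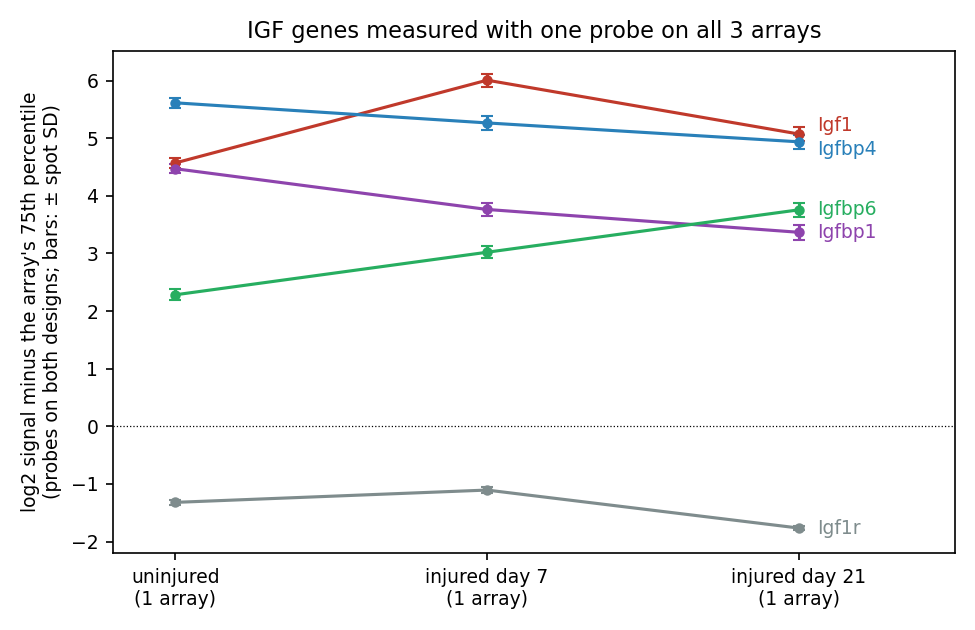
Level of the 5 IGF genes with a probe on both designs, on 1 array per group. Levels are log2 signals minus the array's 75th percentile over the common probes, with ± the SD of the probe's mean from replicate spots. Only the course of each line can be read, since the brightness of different probes cannot be compared. As scaled here, Igf1 is highest at day 7 (6.01), Igfbp6 is highest at day 21 (3.76), and Igfbp1 and Igfbp4 are highest in the uninjured artery.

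Markers of other cells differed at day 7 as well. Smooth muscle markers were at least 2-fold lower in 4 of 5 (summed level 368 to 51.2). Sums here cover only the common probes, scaled on their own percentile, and cannot be set against the sums given for day 21. Macrophage markers were at least 2-fold higher in 9 of 9 (8.91 to 127), endothelial markers in 7 of 7 (2.42 to 9.62), mitosis genes in 6 of 6 (0.952 to 25.9), Schwann cell markers in 5 of 5 (1.23 to 18.4) and adipocyte markers in 2 of 2 (4.08 to 12.8). Fibroblast markers were higher in 2 and lower in 2 of 7 (1113 to 782), skeletal muscle markers lower in 1 of 2 (3.63 to 2.69) and liver or plasma genes lower in 2 of 3 (1.42 to 0.278). Their part in the Igf1 value was not tested.

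The comparison of day 21 with day 7 asked what differed between the early and the later injured wall. None of the 5 genes was 2-fold apart, against 37.3% of 6882 measured genes. Igfbp6 was 1.67-fold higher at day 21 (0.74 ± 0.16). Igf1 was 1.91-fold lower (-0.93 ± 0.16), Igf1r 1.58-fold lower (-0.66 ± 0.07), Igfbp1 1.32-fold lower (-0.40 ± 0.17) and Igfbp4 1.26-fold lower (-0.33 ± 0.16). The median over the 5650 genes detected on both arrays was -0.19. The 3 comparisons share arrays, so their values are not independent.

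Igfbp6 was higher at day 21 than at day 7 under all 8 alternatives, from 0.74 to 2.11, and Igf1 was lower in 7 of them (0.44 with own-design scaling). The Igfbp6 ratio lay 1.67 above that of Igf1 between the injured arrays, and from 1.55 to 1.86 above it over the alternatives. It lay 1.06 above that of Igfbp4. Here too, only quantile normalization, normexp and the authors' deposited table could alter these differences. The signs of Igf1r, Igfbp1 and Igfbp4 turned in 2, 3 and 3 of 8 alternatives.

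**Figure D3:**
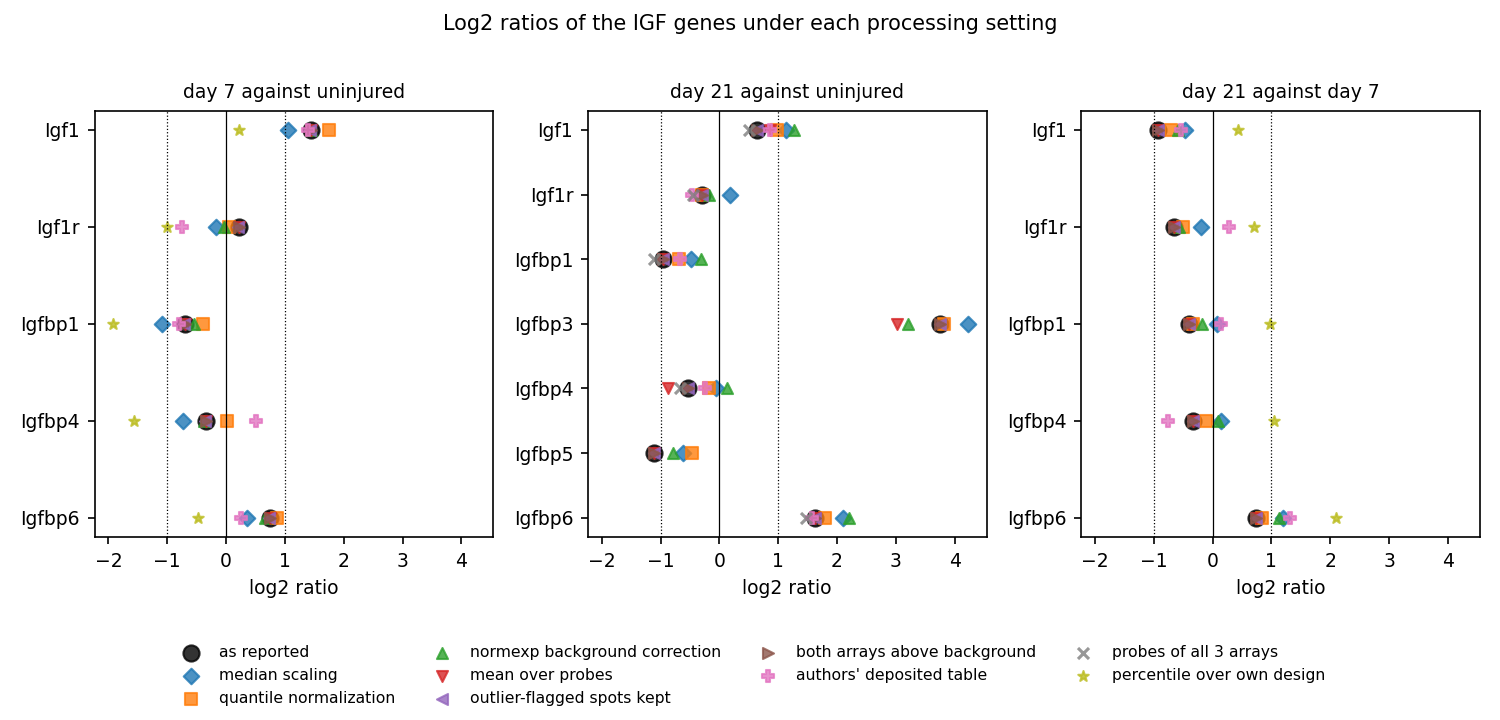
Log2 ratios of the IGF genes in each comparison as reported (black) and under each processing alternative, with dotted lines at 2-fold. Against uninjured, Igfbp3 (6 alternatives) and Igfbp6 (8 alternatives) at day 21 stay to the right of the 2-fold line throughout. Igf1 at day 7 against uninjured does so except when each array is scaled on its own design (0.22). At day 21 against day 7, Igfbp6 is at 0.74 and passes 2-fold in 4 of 8 alternatives. Igf1r lies on both sides of 0.

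Probes present only on the day 7 design gave a signal for the genes that could not be followed over time. The Igfbp3 probe read 3919 and was exceeded by 3.82% of the probes of that array, 4.22 above its 75th percentile. The Igfbp2 probes read 84.4 and 162, the Igfbp5 probe 40.1 and an additional Igf1 probe 2928. Igfbp7, which is abundant in vessels and was measured on this array alone, read 71.7 and was exceeded by 40.2% of probes. All were well above background. No fold against the other arrays was formed, since different probes of 1 gene give different signals for the same RNA.

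The authors' deposited table, on a log2 scale whose centring is unknown, lists values for all 3 arrays under 2 of these day 7 probes. For Igfbp3 the authors' deposited table gives 6.29 (uninjured), 12.1 (day 7) and 9.77 (day 21), and for this Igf1 probe 8.96, 11.6 and 9.95. In the authors' deposited table both are thus highest at day 7. As the scanner files of the uninjured and day 21 arrays hold no such probe, it is unknown which spots gave those values, and no fold is drawn from them. For the Igf1 probe on both designs the authors' deposited table gives 12.7, 14.05 and 13.5, the same order of the arrays as the scanner signals after scaling. For Igfbp6 the authors' deposited table gives 10.67, 10.9 and 12.2, again in the same order. For the other 3 genes the order in the authors' deposited table differs from that of the scanner signals after scaling. The authors' deposited table gives 7.19, 6.45 and 6.72 for Igf1r, 12.6, 11.7 and 11.9 for Igfbp1, and 12.68, 13.2 and 12.4 for Igfbp4.

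The rest of the pathway was described with a list of 63 genes, from ligands and receptors through binding protein proteases to the PI3K, AKT and mTOR kinases. At day 21, 5 of the 48 measured were at least 2-fold higher and 9 lower than in the uninjured artery, with a median of -0.05. At day 7, 4 of 36 were higher and 6 lower, with a median of 0.19. Between the injured arrays 5 of 37 were higher and 11 lower at day 21, with a median of -0.17. The share of the list apart in either direction was 29.2% at day 21 against 24.5% of all genes, 27.8% at day 7 against 37.7%, and 43.2% between the injured arrays against 37.3%. The counts of higher and lower genes depended on the processing. With median scaling they were 10 and 3 at day 21, 2 and 9 at day 7, and 12 and 7 between the injured arrays. With normexp they were 5 and 2, 1 and 6, and 5 and 6, in that order.

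Among ligands and receptors, Igf2, the fetal-type growth factor that also acts through IGF1R, read 186 on the uninjured, 652 on the day 7 and 1388 on the day 21 array. Its log2 ratios were 0.95 ± 0.22 at day 7 and 1.45 ± 0.23 at day 21, the second past 2-fold in all 8 alternatives. Igf2r, which carries IGF2 to lysosomes, read 1188, 884 and 4401. It was lower at day 7 (-1.29 ± 0.13), 0.44 ± 0.15 at day 21 against uninjured, and higher at day 21 than at day 7 (1.58 ± 0.16). Ghr, the growth hormone receptor, was at -0.05 ± 0.38 and -0.85 ± 0.32. Ins1 was at 0.19 ± 0.30 and 0.98 ± 0.28, from signals between 14.5 and 78.0. Ins2 was at 0.73 ± 0.65 at day 7 and at least 2.46-fold lower at day 21, not well above background there. Insr was not well above background on either array of the older design, and Insrr had only a bound without direction.

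Carriers and relatives of the binding proteins lay in both directions. Esm1 (endocan), a proteoglycan of activated endothelium with an IGFBP-like domain, was at 3.17 ± 0.22 at day 7 and 1.51 ± 0.26 at day 21, past 2-fold in all 8 alternatives each time. Kazald1 was at -0.66 ± 0.13 and -0.99 ± 0.23. Igfbpl1 was at 0.42 ± 0.62 and -1.04 ± 0.51, near background and past 2-fold in 4 of 7 alternatives at day 21. Igfals, the subunit that joins IGF and IGFBP3 in the circulating complex, was not well above background on any of the 3 arrays.

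Among the proteases and their inhibitors, Ctsd, a lysosomal protease that can cut binding proteins, read 4864, 5950 and 54452. It was at -0.57 ± 0.14 at day 7 and 4.10-fold higher at day 21 (2.04 ± 0.14), past 2-fold in all 8 alternatives. Prss23, a serine protease, was 10.01-fold lower at day 7 (-3.32 ± 0.09) and 2.09-fold lower at day 21 (-1.06 ± 0.15, past 2-fold in 4 of 8). Stc1, a stanniocalcin and inhibitor of the PAPP-A proteases, was at 0.38 ± 0.72 and 1.43 ± 0.48, the second falling to 0.30 with normexp. Stc2, its homologue, was at least 2.83-fold higher at day 7 and not well above background on either array of the day 21 comparison. Htra1 was at -0.20 ± 0.09 and 0.05 ± 0.15, and Klk1 at 0.51 ± 0.72 and -0.33 ± 0.54. Pappa and Pappa2 had no matched probe.

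The signalling genes downstream of the receptor were described in 2 groups at day 21, when 24.5% of all genes were at least 2-fold apart. Among adaptors and regulators, 1 of 11 was at least 2-fold higher and 4 lower, or 45.5% apart. Grb14, an inhibitory adaptor of insulin and IGF receptors, was at -1.85 ± 0.32. The receptor substrates Irs1 and Irs2 were at -1.65 ± 0.08 and -1.55 ± 0.30. Irs1 was less than 2-fold apart with normexp (-0.88). Irs2 was less than 2-fold apart with the mean over probes (-0.85) and in the authors' deposited table (-0.04). Of the other adaptors, Shc1 and Grb2 were at 1.03 ± 0.16 (0.56 with the mean over probes) and 0.93 ± 0.35. Among the PI3K, AKT and mTOR genes 0 of 23 were at least 2-fold higher and 2 lower, or 8.70% apart. Tsc1, which restrains mTOR, was at -1.28 ± 0.47 (past 2-fold in 4 of 7 alternatives), and the PI3K subunits Pik3ca and Pik3cd were at 0.60 ± 0.38 and 0.60 ± 0.62.

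At day 7, Akt1 was at 1.22 ± 0.03. It was past 2-fold in 4 of 8 alternatives, and at 0.56 with normexp, 0.46 in the authors' deposited table and 0.00036 with own-design scaling. Igf2bp1, which binds Igf2 mRNA, was at least 2.23-fold higher. Pdpk1 was at 0.62 ± 0.25 and Tsc1 at 0.61 ± 0.42. Irs2 was at -3.03 ± 0.22, the phosphatase Inpp5d at -1.71 ± 0.13 (-0.90 with the mean over probes), the mTOR activator Rheb at -1.66 ± 0.13 and the S6 kinase Rps6kb1 at -1.55 ± 0.13. The authors' deposited table gives the opposite sign for Irs2, 1.74.

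Between the injured arrays, Rheb (1.44 ± 0.14), Irs2 (1.33 ± 0.34) and Rps6kb1 (0.99 ± 0.15) were higher at day 21. Crk had a bound of 1.94-fold higher, but its log2 value of 0.96 was smaller than its spot SD of 1.42. Its day 7 signal of 6.58 was not well above background. Tsc1 was at -2.04 ± 0.54, Irs1 at -1.52 ± 0.58 and Akt1 at -1.14 ± 0.04, and Igf2bp1 was at least 6.13-fold lower. The ratio was past 2-fold in 4 of 8 alternatives for Akt1, 5 of 7 for Irs1 and 6 of 8 for Irs2. Akt1 turned sign when the percentile was taken over each array's own probes.

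**Figure D4:**
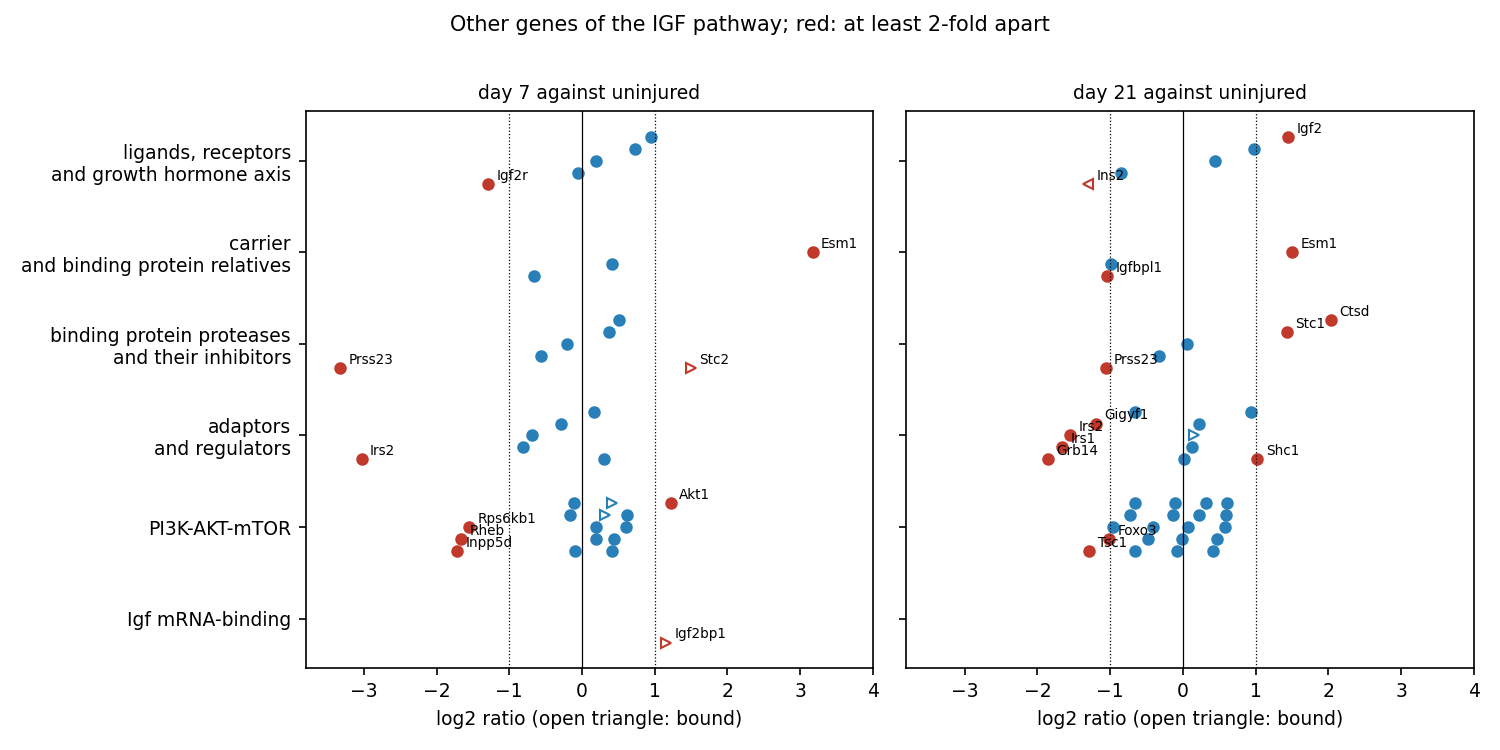
Log2 ratios of the other pathway genes at day 7 and day 21 against uninjured, by role, with dotted lines at 2-fold, red for genes at least 2-fold apart and open triangles for bounds. Esm1 is to the right at both times, Prss23 to the left at both times, and Ctsd (2.04) and Igf2 (1.45) pass the 2-fold line at day 21.

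Genes whose 3 levels, centred on their own mean, lay nearest to a member were sought among 5178 genes. With 3 arrays such likeness is weak: 387 genes (7.47%) lay within 0.5 of Igf1 and 151 (2.92%) within 0.5 of Igfbp6. The numbers were 752 for Igfbp1 (14.5%), 1339 for Igf1r (25.9%) and 1351 for Igfbp4 (26.1%). The nearest to Igf1 were Fhdc1 (distance 0.032) and H2ax (0.052). The nearest to Igfbp6 were Desi2 (0.011) and RT1-CE16 (0.047), to Igfbp1 Zfp281 and Armcx2, to Igf1r Ankrd42 and Ap3s2, and to Igfbp4 Or5h17c and Tomm40. Fewer genes thus lay near Igf1 and Igfbp6 than near Igf1r and Igfbp4, whose levels varied less between the arrays. With a fixed distance the counts depend on the size of a gene's differences. They do not measure how particular its course is.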

How the data were processed

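Cy3 intensity values of each spot were deposited as scanner files of Agilent Feature Extraction, version 10.7.3.1 for uninjured and day 21 and 11.0.1.1 for day 7, per the file headers. They are background-subtracted and not normalized between arrays. The authors' deposited table holds log2 values, with a normalization not given in the sources used here, and column medians of 7.64, 7.62 and 7.64.

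Control and outlier-flagged spots were left out, log2 signals averaged per probe, and the 75th percentile of each array subtracted. Genes were named by matching accessions to a RefSeq table of GRCr8. This gave a name to 42.7% of the probes of the older design and 59.4% of those of the day 7 design. The array annotation is on rn4. A gene was represented by its brightest probe. Called means 2-fold or more on arrays well above background. Where 1 array was not, the bright signal was set against the higher of the lowest signal well above background and the probe's own. The spot SD was a probe's own where it had at least 5 spots, and otherwise interpolated from such probes over 20 bins of signal. It was divided by the square root of the number of spots.

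Named were all 9 members, the ligand, receptor, carrier and protease genes of the pathway list, and up to 4 others per direction. The members and lists were chosen with earlier results of these data known. The alternatives were median scaling, quantile normalization, normexp (offset 50), the mean over probes, flagged spots kept, only genes above background on both arrays, the authors' deposited table, and other sets of probes. Normexp used the median spot signal, since the mean spot signal that the plan named was not among the columns. The steps were tested on simulated data and run in Python 3.11.15, pandas 2.3.3, R 4.3.3 and limma 3.58.1. The number of arrays, 1 per group, limits the precision.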

Additional observations from a re-analysis of the deposited data

Results flagged for a closer look

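The log2 ratio of Igf1r against the uninjured artery had opposite signs at day 7 (0.21) and day 21 (-0.30). This difference was not tested and rests on 1 array per group. Neither direction is settled, since the day 7 sign turned in 4 of 8 alternatives and the day 21 value was 0.18 with median scaling.

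Probes found only on the day 7 design gave signals well above background in data that no comparison used. The Igfbp3 probe read 3919, the additional Igf1 probe 2928, the Igfbp2 probes 84.4 and 162, the Igfbp7 probe 71.7 and the Igfbp5 probe 40.1. The highest negative control of that array read 25.9.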

How the results depend on the processing

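No paired analysis was possible because each group has 1 array. For the same reason no array could be left out. Of 28 alternative values for the 4 member ratios that were at least 2-fold, none turned sign (Igfbp3, Igfbp6 and Igfbp5 at day 21, Igf1 at day 7). Of 104 values for the 13 other member ratios, 18 did. Larger ratios need a larger shift to turn, and several alternatives left genes with a single probe unaltered. These counts are thus no test of stability. The scaling decided most: the median of all genes in day 7 against uninjured was -0.01, -0.39 with median scaling, -0.73 in the authors' deposited table and -1.23 when each array was scaled over all probes of its design (own designs). The share of calls that were higher was 49.7%, 26.2%, 20.1% and 5.46%. For day 21 against uninjured that share was 39.9%, 77.1% with median scaling (median of all genes 0.28), 55.6% with quantile normalization, 74.9% with normexp and 57.4% in the authors' deposited table. For day 21 against day 7 it was 35.1%, 66.0% with median scaling, 59.1% with quantile normalization, 86.4% in the authors' deposited table and 95.3% on own designs.

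The number of members at least 2-fold apart was 3 for day 21 against uninjured. It was 1 in the authors' deposited table, where 5 genes were listed under a probe of the older design. Igfbp3, listed there under a day 7 probe only, was not counted, which lowers that number. For day 7 against uninjured the number was 1, 2 with median scaling and 3 on own designs. For day 21 against day 7 it was 0, 1 each with median scaling, normexp and the authors' deposited table, and 2 on own designs. The median of the pathway list moved from -0.05 to 0.43 with median scaling at day 21. At day 7 it moved from 0.19 to -0.19 with median scaling, -0.12 with quantile normalization, -0.21 with normexp, -0.57 in the authors' deposited table and -1.06 on own designs. Between the injured arrays it moved from -0.17 to 0.29, 0.16 with quantile normalization, 0.65 in the authors' deposited table and 1.20 on own designs. Irs2 reversed in the authors' deposited table, from -3.03 to 1.74 at day 7 and from 1.33 to -1.78 between the injured arrays. Ghr between the injured arrays reversed from -1.03 to 0.020 there and 0.34 on own designs, and Akt1 from -1.14 to 0.23 on own designs. The cause was not tested. Signals near background limit Igfbp5 and Igfbp2.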

Other observations

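In the authors' deposited table the value of a probe on both designs can differ from the scanner signal of that probe. On the uninjured array, the authors' deposited table lies 1.09 above the scanner's log2 signal for Igf1, 1.098 for Igfbp1, 1.40 for Igfbp6 and 1.53 for Igf1r, but 0.08 for Igfbp4. On the day 21 array, the authors' deposited table lies between 0.14 and 0.06 below it for those 4 genes and 1.08 below it for Igfbp4. On the day 7 array the offset of Igfbp4 is 0.08, between 0.19 for Igf1 and -0.29 for Igf1r. In the authors' deposited table Igfbp4 thus stands apart on both arrays of the older design, which carries a second, dimmer Igfbp4 probe, and not on the day 7 array. The older design also carries a second, dimmer Igf1 probe (164 against 3018 on the uninjured array), and Igf1 does not stand apart. The cause was not tested.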
